A study of Homo sapiens with 18 samples.

Results

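The replication-dependent histone genes encode the linker histone H1 and the core histones H2A, H2B, H3 and H4 that package newly copied DNA. They were taken from the gene count matrix by symbol (H1-1 to H1-6, and every H2AC, H2BC, H3C and H4C gene with a number), which gave 69 of 62754 genes. There were 6 H1, 17 H2A, 18 H2B, 13 H3 and 15 H4 genes, 55 of them on chromosome 6, 13 on chromosome 1 and 1 on chromosome 12. RNA was sequenced from EA.hy926, an endothelial line made by fusing umbilical vein endothelial cells with the lung epithelial line A549. Mock cells received transfection reagent alone, siNT cells received 10 nM non-targeting siRNA, and siELMO1 cells received 10 nM of a pool of 3 siRNAs against ELMO1, so effects of single siRNAs cannot be told apart. All cells were starved in low serum overnight and were taken 48 h after transfection, before poly(I:C) (0 h), or 24 h after 1 μg/ml poly(I:C), a double-stranded RNA mimic that activates TLR3. Each of the 6 groups had 3 biological replicates, giving 18 libraries. No group was kept for those 24 h without poly(I:C), so its effect cannot be told apart from the added time in culture and after transfection.

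Replication-dependent histone mRNAs are made mainly in S phase and are the main class of animal mRNAs that normally lack a poly(A) tail. Their 3′ end is a short stem-loop bound by SLBP, and cleavage just after it is guided by the U7 snRNP. When cells differentiate or leave the cycle, some of these genes also give rise to longer polyadenylated RNAs that use a signal further downstream. The libraries were made with a kit that selects poly(A) RNA, so the choice of library affects mRNAs without a poly(A) tail, and the values below measure what was captured rather than the whole histone mRNA pool. A lower level in these bulk samples also cannot be told apart from fewer cells in S phase with the same RNA per cell.

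The stem-loops are shown because they decide which annotated transcripts should be missed by poly(A) selection. A stem-loop ending at most 10 bases before an annotated transcript end was found in 66 of the 69 genes, against 30 of 62631 other genes (0.0479%). The 66 genes carried 10 distinct stem-loops, and the most common, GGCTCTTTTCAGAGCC, was present in 37 of them. The H4 genes below pair a different stem, GGCCC with GGGCC. In the sequences below, taken from GRCh38 and written 5′ to 3′ on the gene's strand, capitals mark the stem-loop.
H2BC12: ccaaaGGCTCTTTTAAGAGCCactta
H2BC5: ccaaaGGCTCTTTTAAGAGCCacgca
H2BC18: ccaaaGGCTCTTTTCAGAGCCacttc
H2AC18: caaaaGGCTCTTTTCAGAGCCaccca
H2AC25: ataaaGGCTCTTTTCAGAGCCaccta
H1-2: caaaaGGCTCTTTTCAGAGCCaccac
H3C6: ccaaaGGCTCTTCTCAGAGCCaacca
H4C14: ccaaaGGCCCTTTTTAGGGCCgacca
H4C3: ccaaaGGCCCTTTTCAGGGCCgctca
H4C1: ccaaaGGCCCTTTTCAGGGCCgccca

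All of these stem-loops lie in the 3′ UTR of the gene. On the plus strand are those of H2BC5 (chr6:26158587-26158602), H3C6 (chr6:26225596-26225611), H4C1 (chr6:26022030-26022045), H4C3 (chr6:26104317-26104332) and H4C14 (chr1:149833032-149833047). On the minus strand are those of H2BC12 (chr6:27146366-27146381), H1-2 (chr6:26055744-26055759), H2BC18 (chr1:149811885-149811900), H2AC18 (chr1:149842223-149842238) and H2AC25 (chr1:228457369-228457384). H2BC21, H2BC8 and H3C1 had no such stem-loop at an annotated transcript end. Each did hold a match to the stem-loop pattern, followed by 1729, 18 and 11 bases, so they were set apart by the limit of 10 bases.

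The genes also share promoter sequence. Of 64 members found in the RefSeq promoter table (GRCh38.p14, 250 bases before to 50 after the start), the H2B genes stood out for the octamer ATTTGCAT, the recognition word of the POU factor OCT1. On either strand it was present in 14 of 18 H2B promoters (77.8%) and 11 of 16 H2A promoters (68.8%), in 1 of 11 H3 promoters and in none of the 6 H1 or 13 H4 promoters, against 1.80% of all 27305 promoters. The CCAAT word was present in every H1, H2A, H2B and H3 promoter in the table and in 23.1% of H4 promoters, against 35.7% of all promoters. The windows of 4 tested H2B genes are shown, chosen after their values were seen, with the octamer in capitals. All are on the minus strand of GRCh38, and the octamers lie at chr6:27146897-27146904 (H2BC12), chr1:149886721-149886728 (H2BC21), chr6:27132835-27132842 (H2BC11) and chr1:149812412-149812419 (H2BC18).
H2BC12: ttcaccttATTTGCATgagaggtc
H2BC21: gagccctaATTTGCATaaggtggt
H2BC11: ttcaccttATTTGCATaagcgatt
H2BC18: gagtcttcATTTGCATacgggctc

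The 69 genes held 76033 counts in all 18 libraries together, whose totals ran from 40374756 to 73850946 counts. In 5 genes (H1-1, H2AC1, H2BC1, H4C6 and H4C7) every library had 0 counts. The low-count filter (a total of at least 100 counts and at least 1 CPM, a count scaled to library size, in some library) was passed by 21 members: 1 H1, 5 H2A, 7 H2B, 2 H3 and 6 H4 genes. The other 48 were not tested. For 6 of the 21 the libraries over 1 CPM all came from 1 group: H2AC11, H2BC18 and H4C1 passed through Mock 0 h replicate 1 alone, H4C16 through 1 siELMO1 24 h library, H2BC15 through 2 Mock 24 h libraries and H4C3 through the siNT 0 h libraries. These 6 passed because of the group in which they were high.

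The 18 libraries carried the labelled knockdown and cell type. At 0 h ELMO1 had a mean of 3.02 CPM with reagent alone, 2.94 with siNT and 0.340 with siELMO1, a log2 fold change of -3.15 against Mock and -3.11 against siNT (edgeR adjusted p = 4.5e-08 and 2.7e-08), and it was also lower at 24 h (-3.13 and -3.64). Of 13 endothelial markers 12 passed the filter, with CLDN5 below it, and their summed level per library was 1666 to 1779 CPM in Mock 0 h, 1795 to 1869 in siNT 0 h and 2279 to 2390 in siELMO1 0 h. Of 9 epithelial markers 4 passed, led by KRT7, KRT8 and KRT18, with sums of 1516 to 1538 CPM in Mock, 1879 to 1911 in siNT and 2100 to 2224 in siELMO1 at 0 h and 842 to 861, 1010 to 1056 and 1098 to 1314 CPM at 24 h. After poly(I:C) all 4 were lower in Mock and siELMO1 and 3 in siNT. CDH1, NKX2-1 and SFTPC had 0 counts in every library. Mitochondrially encoded genes took 1.31% to 2.42% of counts, except in siELMO1 0 h replicates 2 and 3 (4.03% and 3.95%). The part of the marker and mitochondrial differences in the histone values was not tested.

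A single gene led the group in level. On a scale that divides by transcript length (TPM, from the transcript matrix), H2BC12 averaged 71.7 TPM over the 18 libraries, followed by H2AC18 and H2AC19 (16.3 each), H1-2 (15.4), H2BC5 (14.7) and H2AC25 (13.1). The order below H2BC12 was not the same in every group: in siNT at 0 h, H1-2 stood at 12.3 ± 2.70 TPM, H2AC18 at 6.55 ± 0.149, H2AC25 at 5.14 ± 0.257 and H2BC5 at 3.95 ± 1.08 (SD, n = 3), whereas in siELMO1 at 0 h H2BC5 (15.5 ± 2.79) and H1-2 (12.0 ± 4.41) were apart by less than the SD of H1-2. By CPM, which is used below to compare 1 gene across libraries, the 5 highest genes took 50.5% of the summed level.

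Several of these genes cannot be separated by their reads. H2AC18 and H2AC19 share 533 identical transcript bases, H4C14 and H4C15 share 1547, and H3C14 and H3C15 share 518, so the division of counts between the members of each pair is uncertain. H2BC12 shares a stretch of 146 bases with H2BC12L, which is not a member by its symbol, and H2BC18 shares 140 bases with H2BC21. H2BC18 overlaps FCGR1A and H2BC4 overlaps HFE on opposite strands, H4C8 overlaps a long non-coding RNA gene on the other strand, and whether counting used the strand was not stated.

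Before poly(I:C), the summed level of the histone genes in siELMO1 cells lay within the range of Mock, while that of the replication genes was lower. The 69 genes summed to 62.0, 46.8 and 52.8 CPM in the Mock libraries, 50.3, 43.4 and 44.01 in siNT, and 55.7, 52.7 and 51.4 CPM in siELMO1. The siELMO1 libraries lay inside the Mock range and above every siNT library. H2BC12 alone held 17.2, 17.5 and 15.7 CPM of the siELMO1 sums. It held 10.2, 8.90 and 9.81 CPM in Mock and 11.2, 11.5 and 10.5 in siNT. The place of the siELMO1 sums above every siNT library therefore depends on this 1 gene. The 59 replication machinery genes, which include the MCM helicase, the polymerases and the clamp PCNA, summed to 5001 to 5077 CPM in Mock, 4117 to 4169 in siNT and 1727 to 1871 in siELMO1, with no overlap between groups. The sums are given as descriptions, without a test.

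**Figure D1:**
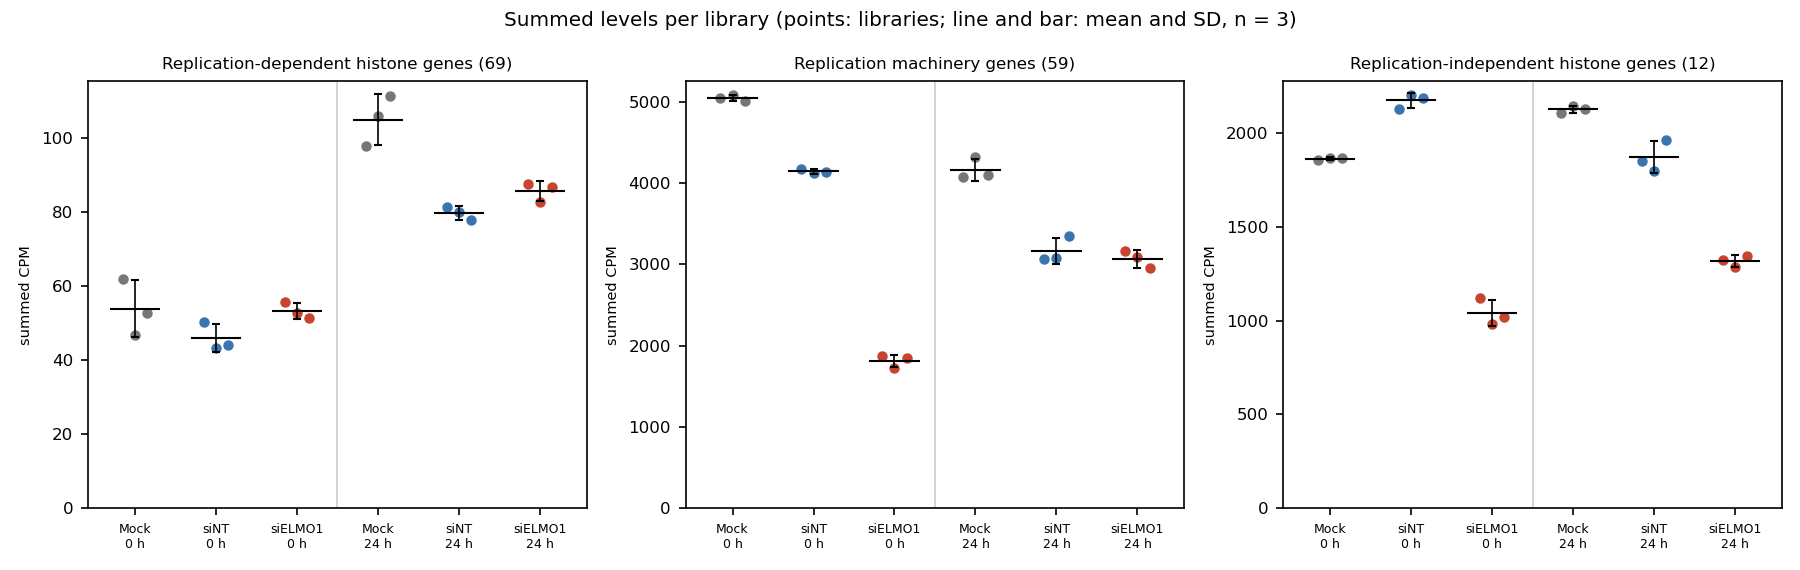
Summed level per library (y axis, CPM) of the 69 replication-dependent histone genes, the 59 replication machinery genes and the 12 replication-independent histone genes in the 6 groups (x axis); points are libraries, lines and bars the mean and SD (n = 3). At 0 h the siELMO1 libraries sit at 51.4 to 55.7 CPM in the first panel, inside the Mock range, and at 1727 to 1871 CPM in the second, below every control library. In the first panel H2BC12 alone makes up 15.7 to 17.5 CPM in siELMO1, 8.90 to 10.2 in Mock and 10.5 to 11.5 in siNT.

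Gene by gene, the replication machinery fell almost as a block. After knockdown 58 of the 59 genes fell relative to Mock and 56 relative to siNT (edgeR quasi-likelihood test, Benjamini-Hochberg adjusted p below 0.05 over 15167 genes). Of all genes tested, 22.4% fell relative to Mock and 31.3% relative to siNT. The median log2 fold change of the 59 was -1.62 against Mock and -1.39 against siNT, beside 0.04 and 0.00 over all genes tested. PCNA was lower by -1.47 ± 0.07 (SE) and -1.23 ± 0.07, and RRM2, the regulated subunit of ribonucleotide reductase, was lower than in Mock by -2.78 ± 0.08.

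The 21 histone genes tested did not follow that pattern. Against Mock, 9 were lower (42.9%, against 22.4% of all genes tested) and 5 higher (23.8%, against 27.9%), with a median log2 fold change of -0.34. The 9 include H2BC18 and H4C1, which passed the filter only through Mock 0 h replicate 1, and without that library 6 of 18 genes tested were lower and 4 higher. Against siNT, 5 were lower (23.8%, against 31.3% of all genes tested) and 4 higher (19.0%, against 31.3%), with a median of -0.05. These 5 include H4C3, which passed the filter only through the siNT 0 h libraries, so the filter favoured this direction. H2BC18 and H4C1 are also among them. The 2 comparisons share the siELMO1 libraries, so they are not independent. Without siELMO1 0 h replicate 3, 8 genes rather than 14 were called against Mock.

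The 5 genes that rose relative to Mock were H2BC5, H2BC12, H4C8, H2AC6 and H3C6, and the first 4 of them also rose relative to siNT. H2BC5 stood at 3.27, 2.27 and 2.84 CPM in Mock, 1.60, 1.07 and 0.927 in siNT, and 5.67, 4.29 and 4.85 CPM in siELMO1. The siELMO1 libraries were above every control library, and siNT was below Mock. The log2 fold change was 0.83 ± 0.17 (SE) against Mock and 2.04 ± 0.18 against siNT (edgeR adjusted p = 0.00059 and 2.2e-08), and siNT itself was lower than Mock by -1.22 ± 0.18 (adjusted p = 2.1e-05).

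H2BC12, the highest member, held 10.2, 8.90 and 9.81 CPM in Mock, 11.2, 11.5 and 10.5 in siNT, and 17.2, 17.5 and 15.7 CPM in siELMO1, with no overlap between siELMO1 and the controls. It was higher by 0.80 ± 0.09 against Mock and 0.60 ± 0.09 against siNT (edgeR adjusted p = 1.5e-06 and 2.5e-05). H2AC6 was higher by 0.62 ± 0.15 and 1.05 ± 0.15 and H4C8 by 0.78 ± 0.24 and 1.35 ± 0.25, and in both genes the siELMO1 libraries lay above all 6 control libraries. The H4C8 call against Mock was lost without Mock 0 h replicate 1 or 2 or siELMO1 0 h replicate 3. H3C6 was called higher against Mock only (0.56 ± 0.22), and its value against siNT was 0.46 ± 0.22. That call was lost without Mock 0 h replicate 2 or 3, siELMO1 0 h replicate 2 or 3, or Mock 24 h replicate 1.

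The genes that fell were H4 genes, H2A genes of chromosome 1, H1-2 and H2BC18. H4C14, which shares sequence with H4C15, stood at 2.55, 2.98 and 2.61 CPM in Mock, 2.19, 2.18 and 1.91 in siNT, and 2.13, 1.43 and 1.34 CPM in siELMO1. The siELMO1 libraries were below Mock and overlapped siNT, with siELMO1 replicate 1 the highest of its group. H4C14 was lower than Mock by -0.72 ± 0.17 (edgeR adjusted p = 0.0015), and its difference from siNT was -0.35 ± 0.17, which did not pass. H4C15 was lower in both comparisons (-0.71 ± 0.19 and -0.47 ± 0.19), and the call against siNT was lost without siNT 0 h replicate 1 or 2 or siELMO1 0 h replicate 2 or 3. With the counts of each near-identical pair added up, 12 members were called against Mock and 10 against siNT.

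H2AC25, a histone H2A gene at chr1:228434777-228457873, held 3.19, 3.33 and 3.22 CPM in Mock, 1.69, 1.59 and 1.91 in siNT, and 1.47, 1.20 and 1.36 CPM in siELMO1. Both siRNA groups were well below Mock. The log2 fold change against Mock was -1.27 ± 0.16 for siELMO1 (edgeR adjusted p = 4.4e-06) and -0.91 ± 0.16 for siNT (adjusted p = 0.00013), whereas siELMO1 against siNT gave -0.36 ± 0.17 and did not pass. H2AC18 was lower than Mock by -0.49 ± 0.16 and lower than siNT by -0.39 ± 0.16, and H2AC19, which shares its reads, by -0.49 ± 0.16 and, without passing, -0.38 ± 0.16. H1-2, the only linker histone gene tested, was lower than Mock by -0.52 ± 0.21 (adjusted p = 0.048). Without siELMO1 0 h replicate 3 the H2AC18, H2AC19 and H1-2 calls against Mock were lost, and the H2AC18 call against siNT as well. The H2AC19 call was also lost without Mock 0 h replicate 2, the H2AC18 call against siNT without any single siNT 0 h library, siELMO1 0 h replicate 1, Mock 0 h replicate 3 or Mock 24 h replicate 1, and the H1-2 call without any single Mock 0 h library, siELMO1 0 h replicate 2, siNT 0 h replicate 1 or 3, any siNT 24 h library, Mock 24 h replicate 2 or 3 or siELMO1 24 h replicate 2.

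The steepest falls were in genes with few counts. H4C3 had 53, 60 and 51 counts in the Mock libraries, 123, 89 and 73 in siNT, and 29, 0 and 6 in siELMO1, and its log2 fold change was -1.98 ± 0.69 against Mock and -2.93 ± 0.69 against siNT (edgeR adjusted p = 0.023 and 0.0012). The lone siELMO1 library with more than a few counts was replicate 1. The H4C3 call against Mock was lost without siELMO1 0 h replicate 2 or 3. H2BC18 had 116, 29 and 60 counts in Mock, 66, 18 and 36 in siNT, and 4, 8 and 11 in siELMO1 (-2.68 ± 0.68 and -2.003 ± 0.68, edgeR adjusted p = 0.003 and 0.016). H4C1 had 75, 19 and 31 counts in Mock, 27, 13 and 46 in siNT, and 6 in each siELMO1 library (-2.37 ± 0.70 and -1.92 ± 0.71). Against siNT, the H2BC18 call was lost without siNT 0 h replicate 1 or siELMO1 0 h replicate 1, and the H4C1 call without siNT 0 h replicate 3 or siELMO1 0 h replicate 1 or 3. H4C3, H2BC18 and H4C1 passed the low-count filter only through control libraries. With no filter beyond dropping genes at 0, H4C3 and H2BC18 kept both calls, and H4C1 was called against Mock (adjusted p = 0.021) and not against siNT (adjusted p = 0.056).

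**Figure D2:**
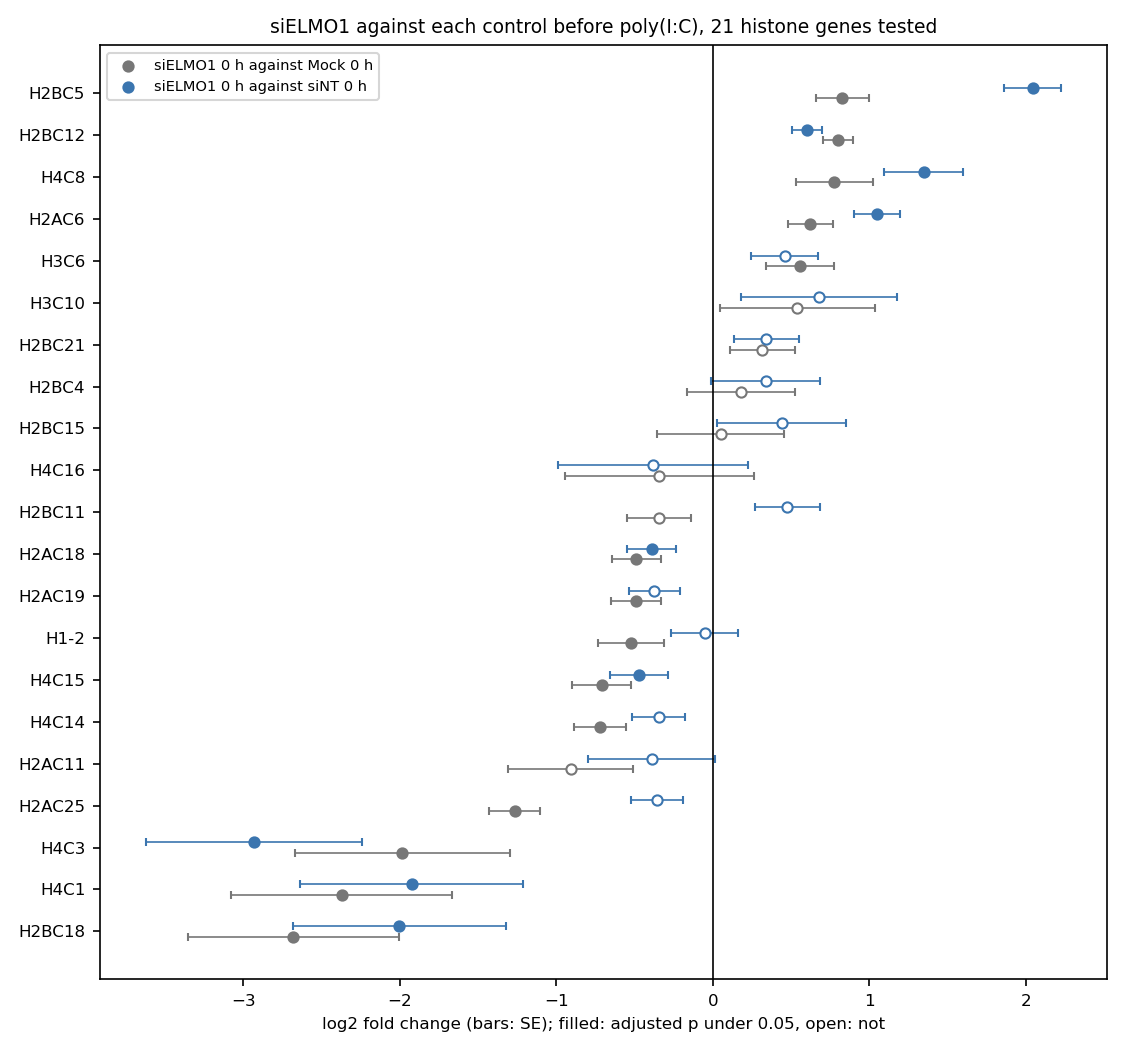
Log2 fold change (x axis, bars SE) of the 21 histone genes tested (y axis) in siELMO1 against Mock (gray) and against siNT (blue) at 0 h; filled points passed an adjusted p of 0.05. H2BC5, H2BC12, H4C8 and H2AC6 are to the right of 0 in both comparisons, and H2BC18, H4C1 and H4C3 are furthest to the left.

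Members too low to be tested were lower in the knockdown cells as a group. The 48 genes summed to 12.8, 5.01 and 8.46 CPM in the Mock libraries, 8.00, 6.72 and 7.19 in siNT, and 3.70, 4.19 and 3.45 CPM in siELMO1. All 3 siELMO1 libraries were below all 6 control libraries, and Mock replicate 1 was the highest of the 18. With edgeR's filterByExpr, which retained 51 members among 20351 genes, 13 were lower and 5 higher against Mock (16.8% and 20.0% of all genes tested), and 12 were lower and 4 higher against siNT (23.9% and 23.8%). With no filter, 50 of 64 members had a log2 fold change below 0 against Mock (78.1%, against 44.6% of 37970 genes) and 48 of 64 against siNT (44.4% of all genes). These counts are descriptions. The 51 and the 64 members include genes tested in the main fit, so the counts do not describe the 48 low genes alone. The 12 of 51 lower against siNT are a share close to that of all genes. H1-4, chosen after its values were seen, had 53, 25 and 53 counts in Mock, 36, 26 and 36 in siNT, and 14, 0 and 9 in siELMO1.

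The class sums differed in direction at 0 h. The H2B genes summed to 18.4 to 24.6 CPM in Mock, 17.4 to 21.5 CPM in siNT and 27.6 to 30.3 CPM in siELMO1, so the knockdown libraries were above every control. H2BC12 alone held 8.90 to 10.2, 10.5 to 11.5 and 15.7 to 17.5 CPM of these sums, and the separation from Mock rests on it. Of the 7 H2B genes tested, 2 were higher against Mock (28.6%, against 27.9% of all genes) and 1 lower (14.3%, against 22.4%). Against siNT also 2 were higher and 1 lower (31.3% of all genes each). The H4 genes summed to 8.66 to 10.4 CPM in Mock, 7.67 to 9.27 CPM in siNT and 5.94 to 7.23 CPM in siELMO1, below every control. The H2A sum was 11.4 to 14.7 CPM in Mock and overlapped between siNT (9.11 to 9.92 CPM) and siELMO1 (9.64 to 9.89 CPM), and the H3 sums overlapped in all 3 groups.

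The transcript matrix separates RNAs by their annotated 3′ end. Of 103 annotated transcripts of the members, 66 end at the stem-loop and 37 end elsewhere. Both kinds are annotated for 17 members, 49 members have only transcripts that end at the stem-loop, and 3 have only the other kind. Those 3 are H2BC21, H2BC8 and H3C1. H2BC8 and H3C1 end 18 and 11 bases after a stem-loop match and count as ending elsewhere by the limit of 10 bases. Transcripts ending elsewhere took 45.1% of the members' counts and 86.7% in the 17 members with both. These shares are of counts not divided by transcript length, which gives longer transcripts more weight. The counts are estimates that divide reads among overlapping transcripts, and no read of a non-polyadenylated end can be identified from them.

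All transcripts ending at the stem-loop summed to 37.8, 25.6 and 32.2 CPM in Mock, 33.0, 28.6 and 28.9 in siNT, and 30.4, 29.6 and 26.6 CPM in siELMO1 at 0 h, and the 3 groups overlapped. H2BC12 has 1 annotated transcript, which ends at the stem-loop, and holds 16469 of the 76033 member counts, so it was set apart after its values were seen. Without it, transcripts ending at the stem-loop summed to 27.6, 16.7 and 22.4 CPM in Mock, 21.8, 17.0 and 18.4 in siNT, and 13.2, 12.1 and 11.0 CPM in siELMO1 at 0 h. With H2BC12 left out, which was higher in siELMO1, all 3 siELMO1 libraries were below all 6 controls. Transcripts ending elsewhere summed to 24.1, 21.2 and 20.6 CPM in Mock, 17.3, 14.8 and 15.1 in siNT, and 25.3, 23.1 and 24.8 CPM in siELMO1, where the knockdown libraries were above siNT and overlapped Mock. In the 17 members with both kinds, transcripts ending elsewhere held 88.4% to 93.7% of counts in siELMO1, 81.8% to 90.6% in Mock and 76.4% to 85.0% in siNT.

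**Figure D3:**
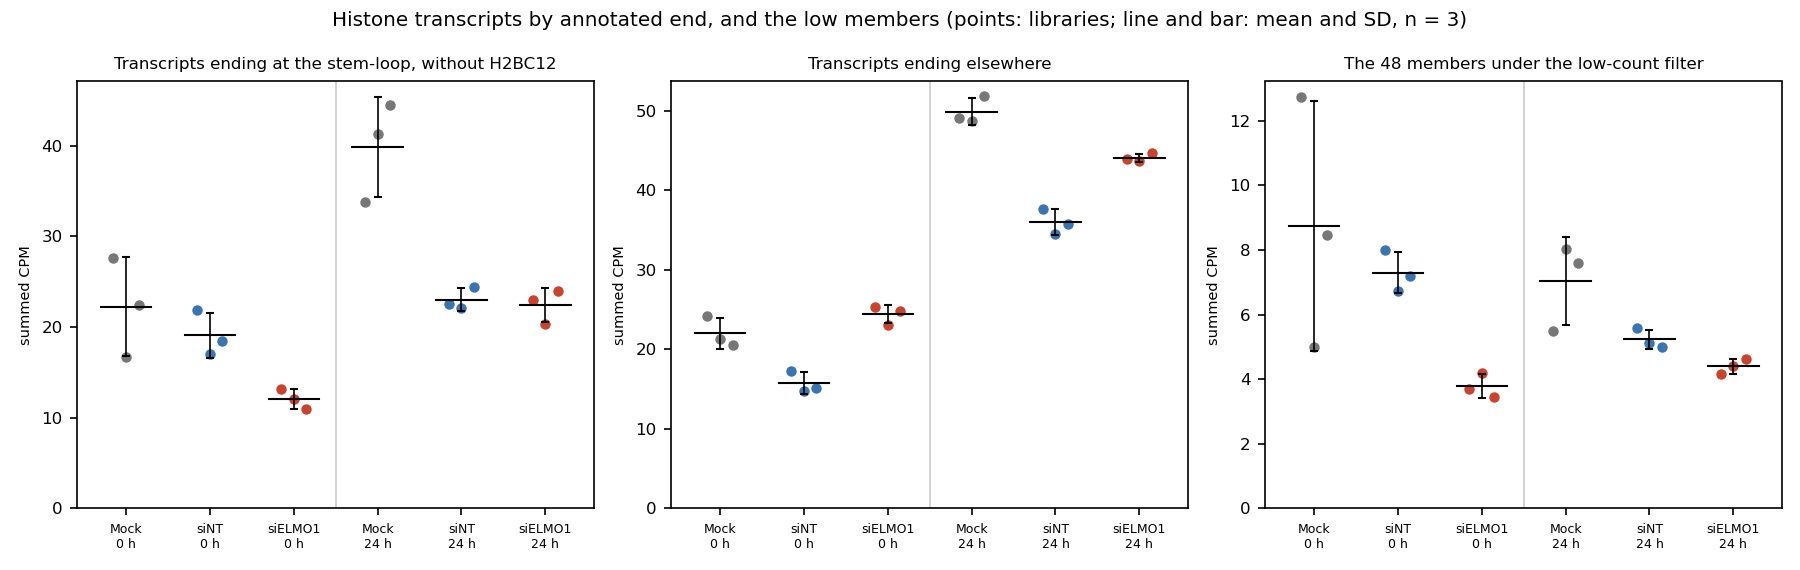
Summed CPM per library (y axis) of histone transcripts annotated to end at the stem-loop, without H2BC12 (left), of transcripts ending elsewhere (middle) and of the 48 genes under the low-count filter (right) in the 6 groups (x axis); points are libraries, lines and bars the mean and SD (n = 3). At 0 h the siELMO1 libraries are below every control in the left panel (11.0 to 13.2 CPM) and in the right panel (3.45 to 4.19 CPM), and not in the middle one (23.1 to 25.3 CPM); with H2BC12 included, the left sums are 26.6 to 30.4 CPM in siELMO1 and overlap those of Mock (25.6 to 37.8 CPM).

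In single genes the longer transcripts held most of the counts, which were not divided by transcript length and grow with it. The spliced H2BC5 transcript of 789 bases, which reaches beyond the stem-loop, stood at 2.41 CPM in Mock, 0.928 in siNT and 4.45 in siELMO1 at 0 h, whereas the 486-base H2BC5 transcript that ends at the stem-loop stood at 0.382, 0.269 and 0.488 CPM. For H2AC6, the 1668-base spliced transcript held 2.31, 1.81 and 3.25 CPM and the 519-base transcript ending at the stem-loop held 0.135, 0.304 and 0.158 CPM. In H2AC25 the longer transcript also held more counts, but the order of the groups differed. Its 895-base transcript ran from 2.72 CPM in Mock to 1.35 in siNT and 0.917 in siELMO1. The 510-base transcript ending at the stem-loop held 0.531, 0.380 and 0.425 CPM.

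RNAs without a poly(A) tail that are not histone mRNAs varied widely between libraries. The sum over 9 of them (among them RN7SK, RN7SL1 and RN7SL2) ran from 22.9 to 117 CPM among the Mock 0 h libraries, from 43.4 to 123 CPM in siNT 0 h and from 23.9 to 98.6 CPM in siELMO1 0 h. The range within each group was wider than the difference between group means. Of the 3 tested, RN7SK alone differed between siELMO1 and siNT (-1.02 ± 0.36, edgeR adjusted p = 0.018), and none was called between siELMO1 and Mock (RN7SK -0.53 ± 0.36, adjusted p = 0.24; RN7SL1 and RN7SL2 0.16 each). The part of such carry-over in the histone values was not tested.

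The factors that make and process histone mRNA were mostly lower in siELMO1. Of 23 genes of this list, 16 were lower and 3 higher against Mock, and 14 lower and 4 higher against siNT (all genes tested, 22.4% lower and 27.9% higher, and 31.3% for each direction), with medians of -0.42 and -0.27. CCNE2, a cyclin that activates CDK2 at the start of S phase, was lower by -1.87 ± 0.12 and -1.67 ± 0.12, and CDK2 by -0.97 ± 0.06 and -0.87 ± 0.06. NPAT, the coactivator of histone genes that CDK2 phosphorylates, was lower by -0.16 ± 0.06 and -0.24 ± 0.06. SLBP, which binds the stem-loop, was lower by -0.39 ± 0.05 and -0.38 ± 0.05. ERI1, a nuclease that trims the stem-loop end, was lower by -1.07 ± 0.07 and -1.88 ± 0.07, and LSM11, a U7 snRNP protein, was higher than in Mock by 0.77 ± 0.10 and did not differ significantly from siNT (-0.21 ± 0.10).

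The replication-independent and variant histone genes, most of whose mRNAs carry poly(A) tails, were mostly lower. H2AX is known to make a stem-loop mRNA as well as a polyadenylated one. Relative to Mock 9 of the 11 tested fell (81.8%, against 22.4% of all genes tested). Relative to siNT 9 fell (81.8%, against 31.3%) and 2 rose (18.2%, against 31.3%). The medians were -1.04 and -1.31. H2AZ1, a variant placed at promoters, was lower by -1.74 ± 0.10 and -1.88 ± 0.10. H2AX, the variant phosphorylated at DNA breaks, was lower by -1.59 ± 0.08 and -1.62 ± 0.08, and CENPA, the histone H3 of centromeres, by -2.36 ± 0.17 and -1.41 ± 0.17. H2AJ was higher than in siNT by 0.87 ± 0.07 and its value against Mock was -0.07 ± 0.07. The 12 genes summed to 1855 to 1869 CPM in Mock, 2130 to 2203 CPM in siNT and 983 to 1120 CPM in siELMO1. Among 20 histone chaperone genes, 13 fell and 2 rose relative to Mock (65.0% and 10.0%, against 22.4% and 27.9% of all genes tested). Relative to siNT, 11 fell (55.0%, against 31.3%) and 6 rose (30.0%, against 31.3%). ASF1B, which hands H3 and H4 to the assembly factor at the fork, was lower by -2.77 ± 0.11 and -2.52 ± 0.11.

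Between siNT and Mock at 0 h, the histone genes that were called were all lower in siNT. Of the 21 histone genes, 4 were lower in siNT (H2BC5, H2AC25, H2BC11 and H2AC6). That is 19.0%, near the 24.0% of all genes tested, and none was higher, against 27.6%. The median log2 fold change of the 21 was -0.37, beside 0.03 over all genes tested. Several of the 21 had few counts, which limits their calls. At an unadjusted p under 0.05, 7 were lower and 1 higher, and DESeq2 and limma-voom called none higher. H2BC11 was lower by -0.82 ± 0.21 and H2AC6 by -0.43 ± 0.15, a call lost without Mock 0 h replicate 1 or siNT 0 h replicate 2. Of the replication machinery genes, 35 were lower (59.3%, against 24.0% of all genes tested) and 4 higher (6.78%, against 27.6%) in siNT.

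After poly(I:C) the summed level of the histone genes was higher in all 3 transfections. The libraries with poly(I:C) were also taken 24 h later, and the design cannot separate the 2. The 69 genes summed to 97.6 to 111 CPM in Mock, 77.7 to 81.3 CPM in siNT and 82.6 to 87.6 CPM in siELMO1 at 24 h, above the 0 h libraries of the same transfection in every case. The 9 other RNAs without a poly(A) tail summed to 22.9 to 117 CPM at 0 h and 42.02 to 176 CPM at 24 h in Mock, 43.4 to 123 and 76.3 to 137 CPM in siNT, and 23.9 to 98.6 and 101 to 177 CPM in siELMO1. The 0 h and 24 h libraries overlapped in Mock and siNT and did not in siELMO1. RN7SK, one of them, was called higher in Mock (1.27 ± 0.34) and siNT (0.91 ± 0.34), and its value in siELMO1 was 0.56 ± 0.36. Their part in the histone rise was not tested. Of the 21 genes tested, 13 were higher in Mock (30.7% of all genes tested) and none lower (29.6%), 13 higher and 2 lower in siNT (28.6% and 25.2%), and 10 higher and 1 lower in siELMO1 (28.0% and 26.9%). In each transfection the higher genes include both H2AC18 and H2AC19 and both H4C14 and H4C15, pairs whose reads cannot be told apart. In Mock, none of the 21 was lower at an unadjusted p under 0.05 either, nor by DESeq2 or limma-voom. The median log2 fold change was 0.98 in Mock, 0.81 in siNT and 0.70 in siELMO1, beside 0.01, 0.01 and 0.00 over all genes tested.

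The replication machinery was mostly lower after poly(I:C) in Mock and siNT and mostly higher in siELMO1. In Mock 36 of its 59 genes were lower (61.0%, against 29.6% of all genes tested) and 6 higher (10.2%, against 30.7%) after poly(I:C). In siNT 42 were lower (71.2%, against 25.2%) and 2 higher (3.39%, against 28.6%). In siELMO1 1 was lower (1.69%, against 26.9%) and 55 were higher (93.2%, against 28.0%). The median log2 fold changes were -0.28, -0.45 and 0.82. SLBP did not differ significantly between 24 h and 0 h in Mock (0.05 ± 0.05) or siNT (-0.11 ± 0.05), and was higher in siELMO1 by 0.12 ± 0.05.

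In Mock and siELMO1 the largest responses were those of H2AC18 and H2AC19, whose reads cannot be told apart. H2AC18 held 1.496, 1.78 and 1.64 CPM in Mock at 0 h and 8.20, 8.42 and 9.54 CPM at 24 h. In siNT it went from 1.48, 1.58 and 1.54 CPM to 4.94, 4.07 and 5.42 CPM, and in siELMO1 from 1.21, 1.25 and 1.04 CPM to 4.73, 4.11 and 5.67 CPM. No 24 h library overlapped the 0 h libraries, and Mock at 24 h lay above both siRNA groups. The log2 fold change was 2.41 ± 0.15 in Mock, 1.65 ± 0.15 in siNT and 2.05 ± 0.16 in siELMO1 (edgeR adjusted p = 2.5e-10, 6.1e-08 and 4.5e-09). The rise in siNT was smaller than in Mock (interaction -0.76 ± 0.21, edgeR adjusted p = 0.01).

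H2AC25 was higher after poly(I:C) by 1.52 ± 0.16 in Mock, 1.11 ± 0.16 in siNT and 1.72 ± 0.16 in siELMO1. H2BC21 was higher by 1.44 ± 0.21, 1.07 ± 0.21 and 1.16 ± 0.21, and its only annotated transcript runs 1729 bases past a stem-loop match. H4C14 was higher by 1.06 ± 0.16, 0.81 ± 0.16 and 1.39 ± 0.17. H2BC4 was higher by 1.46 ± 0.33, 1.94 ± 0.34 and 1.46 ± 0.34, and its gene overlaps HFE on the other strand. These genes rose in each transfection without overlap between 0 h and 24 h libraries.

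**Figure D4:**
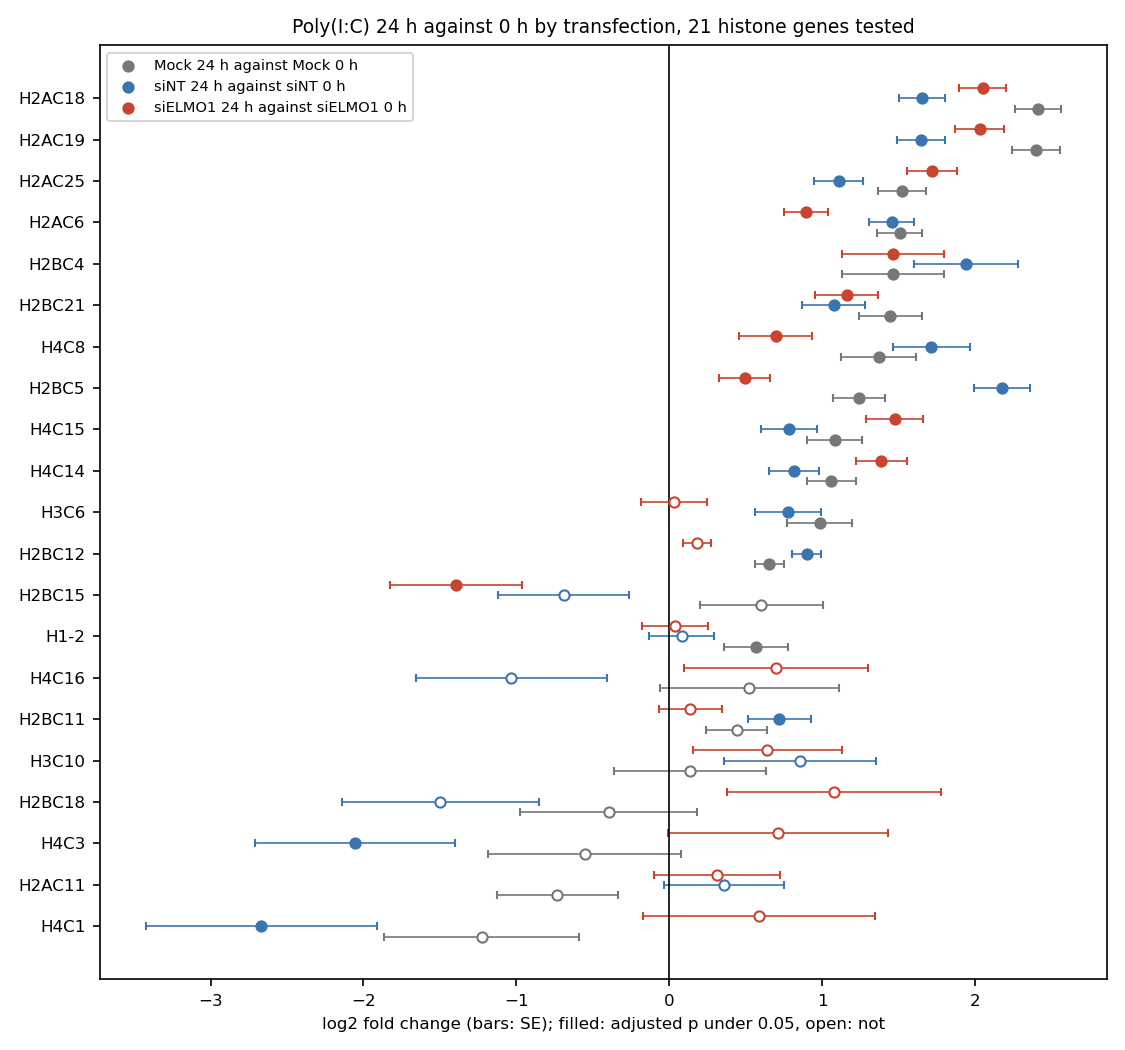
Log2 fold change after 24 h of poly(I:C) (x axis, bars SE) of the 21 histone genes tested (y axis) in Mock (gray), siNT (blue) and siELMO1 (red); filled points passed an adjusted p of 0.05. H2AC18 and H2AC19 have the highest values in Mock (2.41 and 2.40), and the values of H2BC5 run from 0.49 in siELMO1 to 2.18 in siNT.

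The response itself, meaning the change from 0 h to 24 h, was compared between transfections with an interaction term. It holds the effect of the added time as well as that of poly(I:C). Between siELMO1 and siNT, 4 of the 21 histone genes had a lower response (19.0%, against 17.8% of all genes tested) and 5 a higher one (23.8%, against 16.7%). The 5 with a higher response include H4C3, which passed the filter only through the siNT 0 h libraries, so the filter favoured this direction. Between siELMO1 and Mock, 5 had a lower response (14.6%) and 0 a higher one (13.8%), also 0 at an unadjusted p under 0.05 and with DESeq2 or limma-voom. The 5 with a lower response include H2BC15, which passed the filter only through 2 Mock 24 h libraries. Between siNT and Mock, 2 had a lower response (16.0%) and 1 a higher one (14.9%). H2BC5 rose by 1.24 ± 0.17 in Mock and 2.18 ± 0.18 in siNT but by 0.49 ± 0.17 in siELMO1, and at 24 h the groups stood at 6.19 to 7.09, 5.21 to 5.55 and 6.71 to 7.19 CPM. The response in siELMO1 was smaller than in siNT by -1.68 ± 0.24 and smaller than in Mock by -0.75 ± 0.24 (edgeR adjusted p = 3.8e-05 and 0.026). H2BC12 rose by 0.65 ± 0.09 in Mock and 0.90 ± 0.09 in siNT, and its value in siELMO1 was 0.18 ± 0.09, which did not pass (interactions -0.47 ± 0.13 and -0.72 ± 0.13, adjusted p = 0.013 and 0.00038). The H2BC12 interaction with Mock was lost without Mock 0 h replicate 2, and that of H2BC5 without Mock 0 h replicate 2 or 3, siELMO1 0 h replicate 1 or Mock 24 h replicate 1. The rise of H2BC5 in siELMO1 lost its call without siELMO1 0 h replicate 2 or 3 or siELMO1 24 h replicate 2.

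In siNT H4C1 and H4C3 fell after poly(I:C), and in siELMO1 H2BC15 fell. H4C1 and H4C3 were lower in siNT (-2.67 ± 0.76 and -2.06 ± 0.65), where H4C3 went from 123, 89 and 73 counts to 18, 22 and 18. H4C3 had passed the low-count filter only through the siNT 0 h libraries, so its fall in siNT carries no weight as a test. H2BC15 was lower in siELMO1 (-1.39 ± 0.43, a call lost without siELMO1 24 h replicate 3), from 0.924, 0.577 and 0.738 CPM to 0.470, 0.233 and 0.140 CPM, and its values in Mock and siNT (0.60 ± 0.40 and -0.69 ± 0.43) did not pass. Transcripts ending at the stem-loop, without H2BC12, summed to 33.8 to 44.5 CPM in Mock, 22.1 to 24.4 CPM in siNT and 20.4 to 24.0 CPM in siELMO1 at 24 h, and transcripts ending elsewhere to 48.7 to 51.8, 34.5 to 37.7 and 43.7 to 44.7 CPM. The 48 low members summed to 5.48 to 8.04, 5.00 to 5.57 and 4.17 to 4.61 CPM.

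At 24 h few histone genes were called between siELMO1 and siNT. H2AC6 was the only histone gene called (0.49 ± 0.14, edgeR adjusted p = 0.0076), against 26.0% of all genes tested called higher and 26.5% lower. None of the 21 was called lower, 0 were lower at an unadjusted p under 0.05, and DESeq2 and limma-voom also called none lower. H2AC6 stood at 9.42, 8.20 and 8.16 CPM in siELMO1 and 7.06, 6.17 and 5.16 CPM in siNT, without overlap. Same-numbered libraries of these 2 groups deviated together, and with the replicate number as a block in the 24 h libraries 3 genes were called, with H2BC5 (0.37, adjusted p = 0.015) and H4C16 (1.36, adjusted p = 0.033) added. H4C16 had passed the filter only through siELMO1 24 h replicate 1. Of the replication machinery genes 19 were lower (32.2%, against 26.5% of all genes tested) and 14 higher (23.7%, against 26.0%), which is near the share of all genes.

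At 24 h several genes were lower in both siRNA groups than in Mock, and these comparisons share the Mock libraries. The part of the cell death that the paper reports in siNT at this time was not tested. In siNT, 10 genes were lower (24.9% of all genes tested) and 1 higher (25.2%), and in siELMO1 6 were lower (22.0%) and 1 higher (21.6%). The lower genes of both include H2BC15, which passed the filter only through 2 Mock 24 h libraries, so the filter favoured this direction. They also include both H2AC18 and H2AC19, whose reads cannot be told apart. H2AC25 was lower by -1.32 ± 0.16 in siNT and -1.07 ± 0.15 in siELMO1, H1-2 by -0.96 ± 0.21 and -1.05 ± 0.21, and H2AC18 by -0.86 ± 0.14 and -0.85 ± 0.14. H1-2 held 6.71, 8.24 and 9.20 CPM in Mock, 3.78, 4.03 and 4.63 in siNT, and 4.61, 4.02 and 2.99 CPM in siELMO1. H2BC12 was the gene called higher in each (0.45 ± 0.09 and 0.33 ± 0.09), and the second call was lost without siELMO1 24 h replicate 1. In siNT, the block in the 24 h libraries added H2BC5 (-0.28, adjusted p = 0.049) and H4C16 (-1.72, adjusted p = 0.012) to the lower genes.

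**Figure D5:**
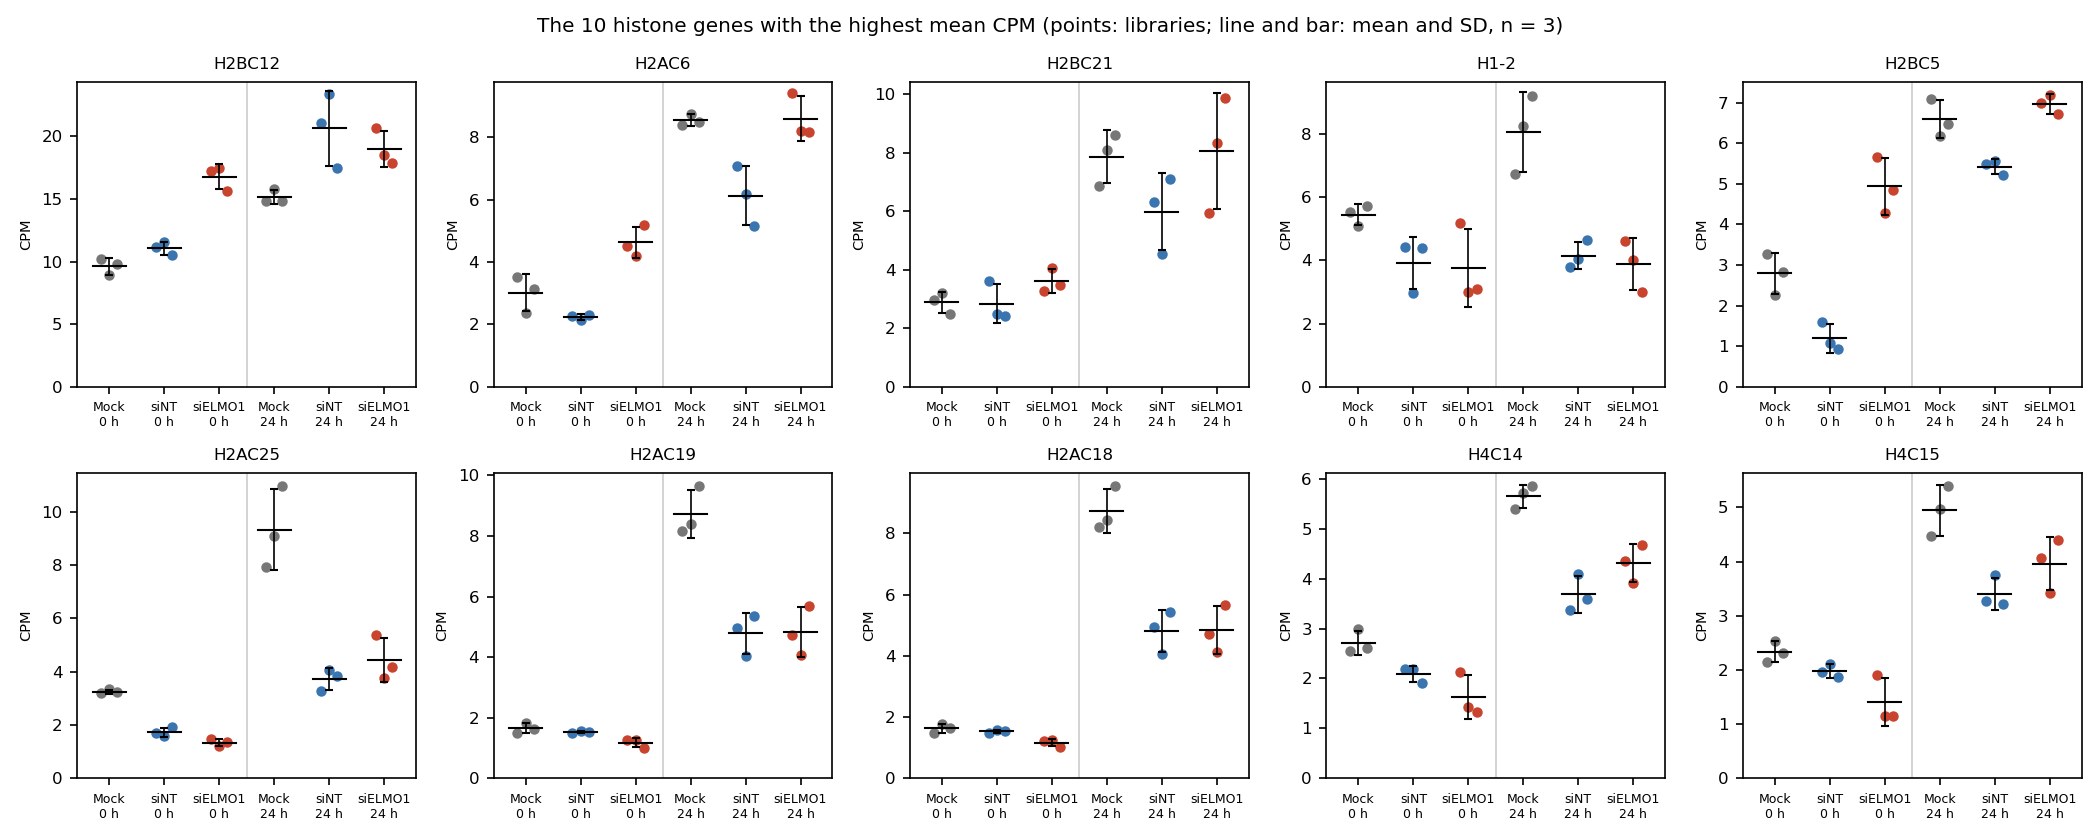
CPM per library (y axis) of the 10 histone genes with the highest mean CPM in the 6 groups (x axis); points are libraries, lines and bars the mean and SD (n = 3). H2BC12, H2AC6 and H2BC5 are higher in siELMO1 than in both controls at 0 h, while H2AC25 is lower in siNT and siELMO1 than in Mock at both times.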

How the data were processed

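Gene and transcript matrices of estimated counts (expected counts), which the authors deposited for 18 libraries, were used. Per the labels and the study's methods, poly(A)-selected stranded libraries were read as paired ends of 100 bases, aligned with STAR to GRCh38, quantified with StringTie against Gencode 44 and exported as whole-number estimates; the strand setting is not given in the sources used here. Totals ran from 40374756 to 73850946 counts, and their number limits the precision of low genes.

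Genes with at least 100 counts in all and at least 1 CPM in some library (15167) were tested in 1 edgeR 4.0.16 quasi-likelihood model with TMM factors (0.958 to 1.06) over all 6 groups, adjusted by Benjamini-Hochberg, with calls at 0.05. The SE is the absolute log2 fold change over the root of F. CPM uses TMM-scaled totals. Sums of members and transcript shares were not tested. Stem-loops were matched on Gencode 44 transcripts, and the fits were tested on simulated data. Alternatives used DESeq2 1.42.0, limma 3.58.1 (voom), other scalings, filters and thresholds, a replicate block and each library left out.

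The members and all gene lists were chosen with earlier results of these data known. Named genes were the 10 members highest in CPM, up to 3 called members of largest change per direction and comparison, ELMO1, members making up a count of 5 or fewer, and genes of the histone mRNA and replication-independent lists. Of the replication and chaperone lists, only high or most changed genes were named. Replicate numbers were taken as pairing where same-numbered libraries correlated above 0.1 in all 3 pairs over 9521 genes, which held for Mock and siNT at 24 h (0.181 to 0.371) and for siNT and siELMO1 at 24 h (0.132 to 0.391), from the data and not from the labels.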

Additional observations from a re-analysis of the deposited data

Results flagged for a closer look

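Single histone genes differed in their response to poly(I:C) between transfections by the interaction test (edgeR, adjusted over 15167 genes). Each value is the log2 fold change from 0 h to 24 h in the first group minus that in the second. The counts are set beside the share of all genes tested and are not read as a result about the histone genes as a group. No cause was tested.

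Between siELMO1 and siNT, 4 genes (19.0%, against 17.8% of all genes tested) had a lower response: H2BC5 (-1.68), H4C8 (-1.02), H2BC12 (-0.72) and H2AC6 (-0.56). In the same comparison 5 genes (23.8%, against 16.7%) had a higher response: H4C1 (3.25), H4C3 (2.77), H2BC18 (2.57), H4C15 (0.69) and H2AC25 (0.61). H4C1, H4C3 and H2BC18 had few counts, and H4C1 had 0 counts in siNT 24 h replicate 3. H4C3 had passed the low-count filter only through the siNT 0 h libraries, so the filter favoured its higher response here. H4C1 and H2BC18 had passed only through Mock 0 h replicate 1. Several of these calls were lost under other settings, left-out libraries included: 24 for H4C15, 20 for H2AC25, 17 for H2BC18, 12 for H2AC6, 10 for H4C3 and 8 for H4C8.

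Between siELMO1 and Mock, 5 genes (23.8%, against 14.6% of all genes tested) had a lower response: H2BC15 (-1.996), H3C6 (-0.95), H2BC5 (-0.75), H2AC6 (-0.61) and H2BC12 (-0.47). Under other settings, left-out libraries included, the H2AC6 call was lost in 9, H3C6 in 8, H2BC5 in 6 and H2BC12 in 3, and H2BC15 had passed the low-count filter only through Mock 24 h libraries. None had a higher response (13.8% of all genes tested), also at an unadjusted p under 0.05 and with DESeq2 or limma-voom. Between siNT and Mock, H2AC18 (-0.76) and H2AC19 (-0.75), which share their reads, had a lower response and H2BC5 (0.94) a higher one. Of all genes tested, 16.0% had a lower response in this comparison and 14.9% a higher one. Groups of 3 libraries are too small for the test of single outlying libraries.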

How the results depend on the processing

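The 102 gene calls kept their direction in all 2955 refits in which the gene was tested, passed the threshold in 2691 of them, and 42 calls passed in every one.

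Counts of called histone genes moved by more than 1.5 times in these cases, and the cause was not tested unless the setting itself gives it. In a fit of only the groups compared, siELMO1 against Mock at 0 h gave 9 genes, siNT against Mock 7, siELMO1 against siNT at 24 h 2 and the siELMO1 and siNT interaction 4. Requiring a fold over 2, a stricter rule, gave 4 for siELMO1 against Mock and 1 for siNT against Mock at 0 h; at 24 h it gave 3 for siELMO1 against Mock, 3 for siNT against Mock and 0 for siELMO1 against siNT; the interactions gave 5 (siELMO1 and siNT), 1 (siELMO1 and Mock) and 0 (siNT and Mock). With filterByExpr, which tests more members, siELMO1 against siNT gave 16 at 0 h and 4 at 24 h and their interaction 5. With no filter, siELMO1 against siNT gave 4 at 24 h, and the interactions 3 with siNT and 1 with Mock. For siELMO1 against siNT at 24 h, DESeq2 gave 3, limma-voom 2, the replicate block 2 and the block in the 24 h libraries 3; limma-voom gave 5 for their interaction.

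Leaving out 1 library at a time gave 8 to 14 genes for siELMO1 against Mock at 0 h (8 without siELMO1 0 h replicate 3), 1 to 3 for siELMO1 against siNT at 24 h (3 without siNT 24 h replicate 3), 3 to 10 for the siELMO1 and siNT interaction (3 without siNT 0 h replicate 3) and 1 to 7 for the siELMO1 and Mock interaction (1 without Mock 0 h replicate 2). Without Mock 0 h replicate 1, H2AC11, H2BC18 and H4C1 fell under the filter, and 6 genes were lower and 4 higher against Mock.

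The replicate block over all 18 libraries, whose numbers did not pair the 0 h libraries, lost 4 gene calls: H3C6 against Mock at 0 h and H4C15, H2BC18 and H2AC25 in the siELMO1 and siNT interaction. The block in the 24 h libraries added H4C14 (-0.39, adjusted p = 0.039) to the lower genes of siELMO1 against Mock, whose numbers did not all correlate above 0.1.

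The summed level over the 21 tested members was 45.1, 38.6 and 49.5 CPM at 0 h in Mock, siNT and siELMO1 and 97.8, 74.4 and 81.2 CPM at 24 h, and with library totals the siELMO1 24 h sum was 82.1 CPM. Depth limits the 48 members that were not tested, and 3 replicates a group limit each comparison.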
